A study of Mus musculus with 12 samples.

Results

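The genes described here are 37 regulators of Polycomb repression, trithorax activity, histone acetylation and DNA methylation, taken by gene symbol from a list of names that was drawn up with earlier results of these data known. All 37 were among the 51912 genes counted in each library, and 33 of them passed the filter on low counts that left 10678 genes to be tested. Phf19, Cbx6, Cbx7 and Pcgf1 did not pass it. RNA was taken from the dissected cortex of mouse embryos at embryonic day 15.5, in 12 libraries that all carry the batch label 1. Mutants (n = 6) were Emx1-Cre Arid1a conditional mutants, and the other embryos were labelled as controls (n = 6). Their labels give no further allele, and the comparison asks which genes change when Arid1a, the ARID-domain subunit of BAF chromatin remodellers, is mutated in the cortex. Emx1-Cre acts in dorsal telencephalic progenitors and the cells they give rise to, so blood vessels, microglia and interneurons born elsewhere keep the gene. Litter 2 held 4 mutants and 2 controls, and litter 1 held 2 mutants and 4 controls. There was 1 male among the mutants (mutant 4) and 4 among the controls (controls 2 to 5).

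Polycomb repressive complex 2 (PRC2) methylates histone H3 at lysine 27 through Ezh2 or Ezh1, and PRC1 binds that mark through Cbx proteins and ubiquitinates histone H2A through Rnf2 or Ring1. Trithorax-group methyltransferases of the MLL family act on histone H3 lysine 4, Dnmt enzymes methylate cytosine and Tet enzymes oxidise it. In flies and mammals, BAF-type remodellers and Polycomb oppose each other at many genes, and in the cortex Ezh2 and Dnmt enzymes are known for their part in the timing of progenitor divisions and neuronal identity.

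The shallowest library held 643197 gene counts (mutant 1) and the deepest 3525121 (mutant 3). Mutants averaged 1549000 ± 1143300 counts, against 2241000 ± 535180 for controls (SD, n = 6 each; exact permutation, two-sided p = 0.206). Levels below are CPM, counts scaled to 1e+06 by the TMM library sizes, except where a level is said to be per raw gene count. Each log2 fold change comes from edgeR's quasi-likelihood test with terms for litter, sex and genotype, with p-values adjusted by Benjamini-Hochberg over all 10678 genes. Arid1a itself averaged 447 ± 51.0 CPM in mutants, against 510 ± 42.3 CPM in controls, a difference of -0.30 on the log2 scale (SE 0.0958) that did not pass the test, at an adjusted p of 0.277 by edgeR. A gene total cannot show the loss of a floxed exon. Neurod6 and Pax6, markers of cortical excitatory neurons and of dorsal progenitors, averaged 135 and 74.6 CPM over the 12 libraries.

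The 12 postmitotic neuron markers summed to between 4376 and 5477 CPM in mutants (mean 4796) and between 5071 and 5866 CPM in controls (mean 5456; two-sided exact permutation p = 0.0195, adjusted p = 0.175 over 9 marker lists). The 26 cycling progenitor markers summed to between 754 and 1426.5 CPM in mutants and between 711 and 1482 CPM in controls (exact permutation p = 0.297). The 14 striatum and ganglionic eminence markers, which a dissection can carry along, summed to between 2056 and 4304 CPM in mutants and between 1712 and 4086 CPM in controls. The 13 interneuron markers summed to between 2010 and 3127 CPM in mutants and between 1768 and 4007 CPM in controls, and the 11 radial glia markers to between 598 and 982 CPM in mutants and between 450.1 and 858 CPM in controls. Microglia (10 markers), endothelial cells (8), red blood cells (7) and meninges (8) each stayed at or below 96.6 summed CPM in every library. The marker lists other than postmitotic neurons had exact permutation p-values of at least 0.297. Such sums rest most on their highest genes. Over the 12 libraries Meis2 gave 40940 of the 59788 counts of the striatum list, and Erbb4 gave 34040 of the 59665 counts of the interneuron list. Unlike the edgeR model, the permutation tests held no term for litter or sex, over which the genotypes are unevenly spread. In bulk tissue, fewer cells of a type and less RNA per cell cannot be told apart, and the part of these shifts in the results below was not tested, apart from the score terms given near the end. By the genewise fit, all 7 striatum markers that were tested had a positive log2 fold change in mutants over controls (median 1.11). So did all 12 tested interneuron markers (median 0.44). Of 11 tested neuron markers (median -0.14), 8 had a negative log2 fold change and 3 a positive one. Among the neuron markers edgeR found 2 higher in mutants at an unadjusted p under 0.05, Nefl and Nefm, and 1 lower, Snap25. None of the markers in these 3 lists was called.

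How reads were assigned bears on every level below. Of 159 protein-coding genes lying wholly in an intron of a gene on the same strand, 158 had a count of 0 in all libraries (99.37%), against 39.44% of 360 such genes on the opposite strand and 22.63% of 20994 genes that are not nested. Counting over whole gene bodies with strand gives this pattern, so a count is taken here to include intronic reads, and a gene covered by a neighbour on its own strand can read 0 whatever its expression. Tubb3 and Sox2, defining markers of neurons and radial glia, were at 0 in every library, and both lie wholly under another gene on the same strand. Among the 37 regulators this applies to Cbx6, a PRC1 chromodomain protein: 95.82% of its span lies under a same-strand gene, and its 3 counts over the 12 libraries are no measure of it. The next largest such overlap was 7.05% of the span of Rnf2.

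By CPM per kb of exon, the scale used in this paragraph unless a span is named, Ezh2 stood first of the 37 at 47.2 ± 4.04 (SD over 12 libraries). Ezh2 is the catalytic subunit that dominates in dividing cells. Kmt2e followed at 39.2 ± 2.72, then Hdac2 at 36.6 ± 2.09 and Crebbp at 36.3 ± 2.57, which lie within each other's spread. Per kb of the whole gene span, which counts the introns that these reads cover, Kdm6b came first at 9.35, Bmi1 second at 9.08 and then Kmt2d at 6.95, and Ezh2 was seventh at 4.84. The order thus depends on the length used. Over exon, span and longest-transcript lengths alike, 6 genes stayed among the 10 highest (Ezh2, Kmt2e, Hdac2, Crebbp, Bmi1 and Mtf2). Another 7 stayed among the 10 lowest (Ezh1, Pcgf5, Dnmt3b, Pcgf1, Phf19, Cbx7 and Cbx6). The place of Cbx6 is no measure of it, for the same-strand overlap given above.

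**Figure D1:**
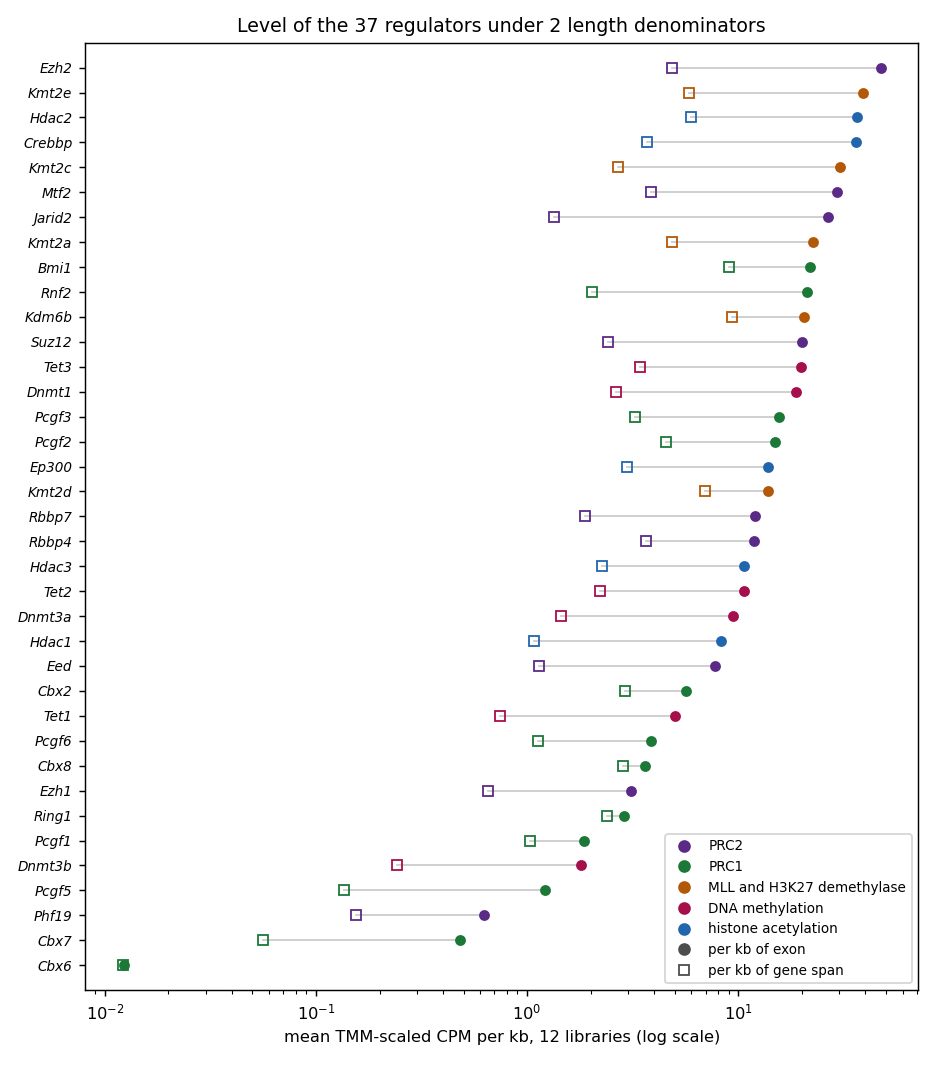
Mean level of each of the 37 regulators over 12 libraries, as TMM-scaled CPM per kb of exon (filled circles) and per kb of gene span (open squares) on a log axis, coloured by complex. Genes are ordered by the exon scale, from Ezh2 at 47.2 to Cbx6 at 0.0124, and the open squares do not follow that order. The level of Cbx6, which lies mostly under a same-strand gene, is no measure of it.

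Among paralogs the level per kb of exon was 15.3-fold higher for Ezh2 than for Ezh1 (7.46-fold per kb of span). Crebbp stood 2.62-fold above Ep300 per kb of exon, and 1.25-fold per kb of span. Dnmt1 stood 1.98-fold above Dnmt3a per kb of exon. Tet1 was at 0.253 of Tet3 and Hdac1 at 0.222 of Hdac2 on the exon scale. Hdac1 shares 35.5% of its 50-base stretches with other genes, against 0% for Hdac2, so some of its reads may have been counted elsewhere or dropped. The log2 ratio of Ezh2 to Ezh1 averaged 3.98 ± 0.27 in mutants, against 3.89 ± 0.26 in controls (SD, n = 6 each). In each of these 5 pairs the ratios of mutants and controls overlapped. For Cbx2 and Cbx7 no mean ratio could be formed, since mutant 4 had no count of Cbx7.

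Of the 37, 31 had a window in RefSeq's promoter table (GRCm38.p6), from 250 bases before to 50 after the start. There, 28 of 31 windows (90.3%) were rich in CpG, with over 50% G and C and an observed to expected CpG ratio over 0.6, against 75.6% of 8351 windows of tested genes and 42.1% of all 20171 windows. The exceptions were Dnmt1 with 2 CpG dinucleotides, Pcgf2 with 10 and Tet3 with 22. For each gene the window nearest the 5′ end of the annotated gene was taken, and which start is used in the cortex was not tested. The windows of Dnmt3a and Pcgf5, the regulators with the lowest p between genotypes, and of Ezh2, the highest per kb of exon, are shown 5′ to 3′ on the gene's strand, with each CpG dinucleotide in capitals. They hold 46, 34 and 31 CpG dinucleotides.
Dnmt3a, chr12:3806730-3807029, plus strand: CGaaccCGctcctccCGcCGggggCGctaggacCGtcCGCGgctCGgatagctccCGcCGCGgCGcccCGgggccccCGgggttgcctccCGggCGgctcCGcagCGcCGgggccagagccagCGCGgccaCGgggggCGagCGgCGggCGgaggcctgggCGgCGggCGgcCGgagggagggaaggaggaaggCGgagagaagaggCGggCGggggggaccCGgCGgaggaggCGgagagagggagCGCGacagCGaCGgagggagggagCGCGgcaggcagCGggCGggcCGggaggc
Pcgf5, chr19:36348079-36348378, plus strand: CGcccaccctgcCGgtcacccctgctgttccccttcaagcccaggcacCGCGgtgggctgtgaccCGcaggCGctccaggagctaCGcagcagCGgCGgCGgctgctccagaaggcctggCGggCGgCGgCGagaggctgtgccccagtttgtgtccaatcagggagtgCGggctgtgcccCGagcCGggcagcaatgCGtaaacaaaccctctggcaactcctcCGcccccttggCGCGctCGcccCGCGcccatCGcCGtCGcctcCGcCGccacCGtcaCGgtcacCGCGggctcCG
Ezh2, chr6:47594981-47595280, minus strand: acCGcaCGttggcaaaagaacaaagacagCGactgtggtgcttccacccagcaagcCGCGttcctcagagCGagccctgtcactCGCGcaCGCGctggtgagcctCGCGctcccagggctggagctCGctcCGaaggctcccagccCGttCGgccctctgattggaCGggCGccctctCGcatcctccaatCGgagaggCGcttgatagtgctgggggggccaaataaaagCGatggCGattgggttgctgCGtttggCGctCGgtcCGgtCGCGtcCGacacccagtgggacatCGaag

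The letters TTTCCCGC or TTTGGCGC, which E2F factors of the cell cycle are known to bind, were searched on both strands of the same windows, and no window of a regulator held both. They occurred in 3 of 31 windows (Ezh2, Suz12 and Phf19), against 3.28% of the windows of tested genes and 1.97% of all windows. The window of Ezh2 printed above holds TTTGGCGC once. A match of letters is a description of the window and not a binding site.

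Between genotypes, none of the 33 regulators tested was called, in either direction. At an adjusted p under 0.05 the test called 0.215% of all genes (23 of 10678), so 0 of 33 is near the background. At an unadjusted p under 0.05 edgeR found 2 of the 33, Dnmt3a and Pcgf5, against 8.78% of all genes. The DESeq2 Wald test and limma-voom also called none. The 33 log2 fold changes had a median of -0.02, beside -0.00 for all genes, with 15 positive and 18 negative, and the interquartile range was -0.09 to 0.04, beside -0.14 to 0.14 for all genes. Mutants and controls overlapped in CPM for each of the 33, while 1.26% of all tested genes showed no overlap.

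The 95% intervals show what sizes remain possible. For 28 of 33 the interval excluded a change of 1.5-fold in either direction, against 48.9% of all tested genes, for 32 it excluded 2-fold (82.4% of all genes), and for 15 it excluded 1.25-fold (12.9% of all genes). High counts go with narrow intervals: 17 of the 33 had a mean over 100 CPM, and 16 of those 17 had an interval within 1.5-fold, beside 83.6% of the 2235 genes at that level. The exceptions over the whole 33 were Pcgf5, Cbx8, Ring1, Dnmt3b and Dnmt3a, the last by a small margin. A p that missed the threshold does not show that levels were equal.

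**Figure D2:**
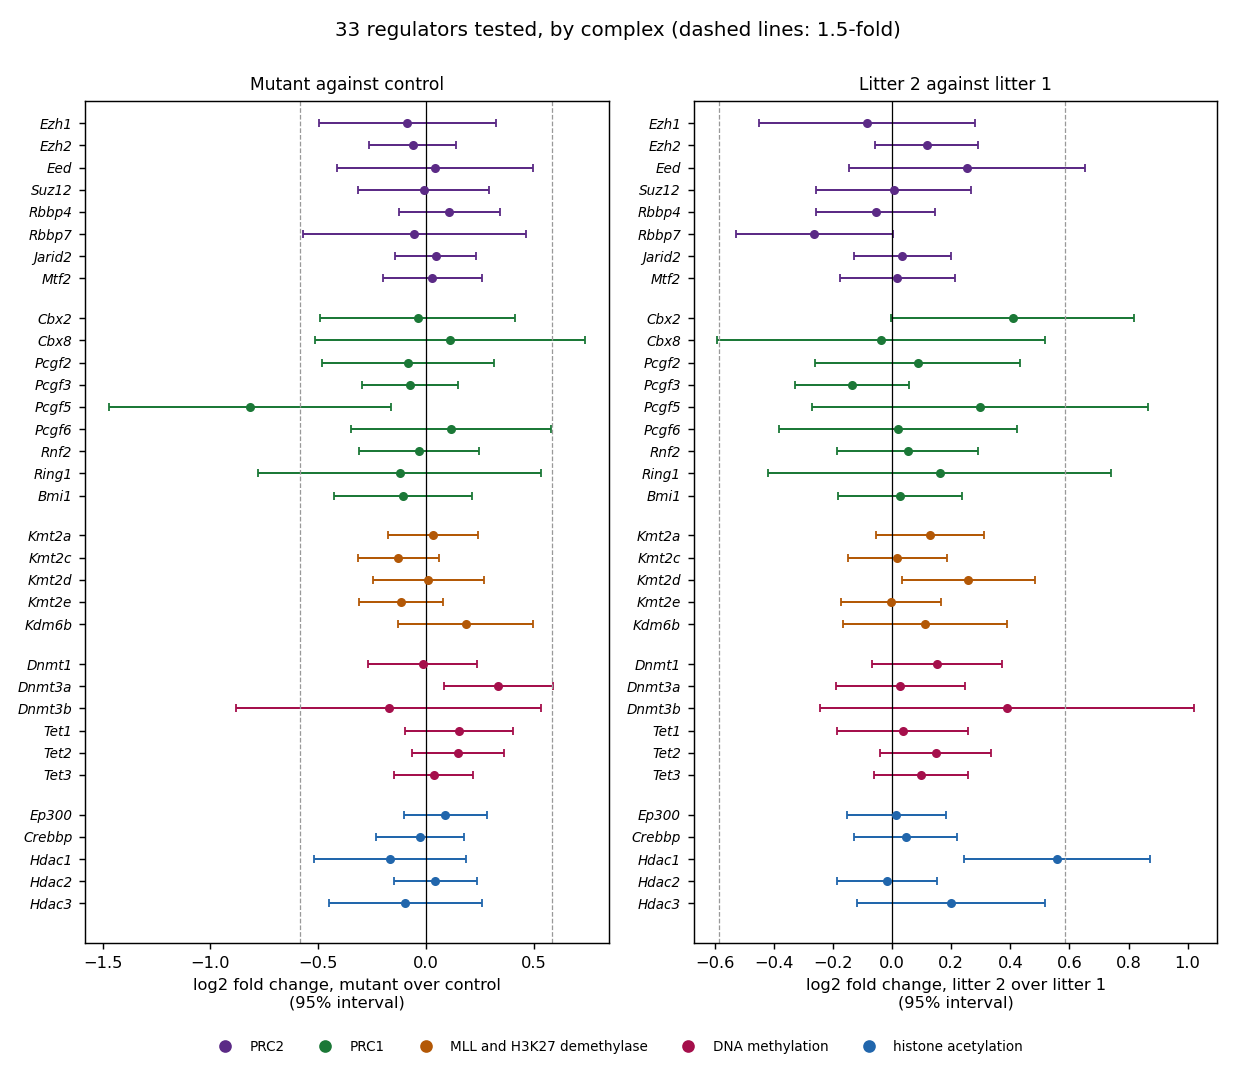
Log2 fold changes of the 33 regulators tested with 95% intervals, mutant over control on the left and litter 2 over litter 1 on the right, grouped and coloured by complex, with dashed lines at 1.5-fold. The intervals of Dnmt3a (0.08 to 0.59) and Pcgf5 (-1.47 to -0.16) exclude 0 on the left, and those of Hdac1 and Kmt2d do on the right, although none passes adjustment over all genes.

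In PRC2, 0 of 8 tested genes was called and the median log2 fold change was 0.01. Ezh2 had 296, 311, 348, 279, 355 and 325 CPM in mutants 1 to 6, against 295, 335, 305, 275, 315 and 347 CPM in controls 1 to 6. The groups covered almost the same range, and the log2 fold change was -0.06 (SE 0.0958; by edgeR, adjusted p = 0.935), with an interval from -0.26 to 0.14. Ezh1, the paralog known from non-dividing cells, had 21.3, 21.3, 18.8, 26.97, 24.4 and 22.3 CPM in mutants and 28.8, 21.9, 27.9, 19.4, 20.8 and 22.5 CPM in controls. Its groups overlapped too, at a log2 fold change of -0.09 (SE 0.194; by edgeR, adjusted p = 0.971). Eed, which binds the methylated lysine, and Suz12, the scaffold, had log2 fold changes of 0.04 and -0.01. The histone-binding subunits Rbbp4 and Rbbp7 had 0.11 and -0.05. Rbbp7 shares 11.2% of its 50-base stretches with other genes, most with Gm6382, so some of its reads may have been counted elsewhere or dropped. Rbbp4 shares 17.2%, most with Gm26722, which overlaps it on the opposite strand. Jarid2 and Mtf2, accessory subunits that help recruit the complex, had 0.04 and 0.03, and over the 12 libraries Jarid2 had the smallest coefficient of variation of the 37, 5.62%. Phf19, another accessory subunit, had 0 to 16 counts per library and was not tested.

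In PRC1, 0 of 9 tested genes was called, and 7 of the 9 log2 fold changes were negative (median -0.07). Pcgf5, the RING-finger partner that defines one variant PRC1, had 12.2, 18.1, 15.5, 10.3, 8.99 and 8.36 CPM in mutants, against 21.7, 14.1, 10.9, 14.2, 30.1 and 19.8 CPM in controls. All 6 mutants lay below the control mean, but 2 of them exceeded the 3 lowest controls. The log2 fold change was -0.82 (SE 0.311, unadjusted p = 0.0174; by edgeR, adjusted p = 0.394). These values rest on 8 to 56 counts per library. Control 5, the highest library, also had the highest sum of meningeal markers, 39.3 CPM, against 3.19 to 12.1 CPM in the other 11 libraries. The part of that library was examined by leaving it out: without control 5 the log2 fold change of Pcgf5 was -0.56 (adjusted p = 0.581 by edgeR). Within litter 2 it was -0.96. In litter 1 the sex term leaves mutants 1 and 2 set against control 1, the one female control there, and Pcgf5 had -0.49. Control 1 was the highest of the 4 controls of litter 1, where the means were 15.1 CPM in mutants and 15.2 CPM in all 4 controls. In litter 2 they were 10.8 CPM in mutants and 24.9 CPM in controls, so the lower mean in mutants was seen in litter 2.

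Rnf2, the main catalytic subunit of PRC1, averaged 89.7 ± 16.1 CPM in mutants, against 84.7 ± 9.05 CPM in controls (n = 6 each, ± SD), with a log2 fold change of -0.03 (SE 0.132; by edgeR, adjusted p = 0.992). Ring1, its paralog, had 9.57 ± 1.80 CPM in mutants and 9.06 ± 3.06 CPM in controls. With litter and sex in the model its log2 fold change was -0.12 (SE 0.312). Bmi1 (Pcgf4), known for keeping neural stem cells dividing, had a log2 fold change of -0.11, Pcgf2 of -0.08, Pcgf3 of -0.07 and Pcgf6 of 0.11. Bmi1 shares 16.7% and Pcgf1 15.3% of their 50-base stretches with other genes, so some of their reads too may have been counted elsewhere or dropped. The chromodomain genes Cbx2 and Cbx8 had -0.04 and 0.11. Cbx7 had 70 counts over the 12 libraries and Pcgf1 71, with none of Cbx7 in mutant 4 and none of Pcgf1 in mutant 6. Per raw gene count, a count of 0 still allows up to 3.77 CPM in mutant 4 and 2.80 CPM in mutant 6, counting error only. Fitted with no filter on low counts, Cbx7 had a log2 fold change of -0.26 and Pcgf1 of -0.22, with adjusted p-values of 0.975 and 0.976 by edgeR.

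Of the trithorax-side genes, 0 of 5 was called. Kmt2a, an MLL-family methyltransferase needed for neurogenesis in the postnatal mouse brain, had 342, 384, 388, 378, 429.9 and 424 CPM in mutants and 371, 300.3, 359.7, 394, 391 and 374 CPM in controls. Control 2 was the lowest library and the groups overlapped, at a log2 fold change of 0.03 (SE 0.0997; by edgeR, adjusted p = 0.985). Kmt2c, which with Kmt2d methylates lysine 4 at enhancers, had 539, 626, 555, 601, 608 and 612 CPM in mutants and 650.0, 649, 605, 636, 617 and 662 CPM in controls. Each mutant lay below the control mean, and the log2 fold change was -0.13 (SE 0.0898; by edgeR, adjusted p = 0.759). Kmt2d had 251, 259, 274, 279, 340.4 and 316 CPM in mutants, against 237, 196, 236, 314, 288 and 308 CPM in controls, and a log2 fold change of 0.01 (SE 0.123). Kmt2e, an MLL-family gene without known strong methyltransferase activity, had 403, 445, 372, 365, 389 and 408 CPM in mutants and 399, 393, 411, 431, 444 and 451 CPM in controls. Only mutant 2 exceeded the control mean of Kmt2e, at a log2 fold change of -0.12 (SE 0.0927; by edgeR, adjusted p = 0.801). Kdm6b, a demethylase of H3 lysine 27, had 158, 163, 127, 163, 155 and 153 CPM in mutants and 99.5, 107, 125, 150.5, 126 and 173 CPM in controls. Mutant 3 was low and control 6 was high for Kdm6b, and the log2 fold change was 0.18 (SE 0.147; by edgeR, adjusted p = 0.814). It was 0.56 without control 6 (adjusted p = 0.211 by edgeR) and 0.039 without control 1.

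In DNA methylation, 0 of 6 was called, and the median log2 fold change was 0.09. Dnmt3a, the de novo methyltransferase active in developing neurons, had 161, 167, 183, 181, 150.3 and 198 CPM in mutants, against 142, 157, 161, 115, 151 and 127 CPM in controls. All 6 mutants exceeded the control mean, yet mutant 5 lay below controls 2, 3 and 5. The means were 173 ± 17.2 CPM in mutants, against 142 ± 18.1 CPM in controls (n = 6 each, ± SD), with a log2 fold change of 0.33 (SE 0.120, unadjusted p = 0.0124; by edgeR, adjusted p = 0.354). It was 0.40 within litter 2 and 0.21 in litter 1, where mutants 1 and 2 are set against control 1. Dnmt1, which copies methylation at replication, had 161, 146, 151, 129.7, 137 and 138 CPM in mutants and 111, 112, 123, 133, 141 and 177 CPM in controls. Its controls spread more widely than its mutants, and the log2 fold change was -0.02 (SE 0.120). Dnmt3b, the other de novo enzyme, averaged 8.71 CPM in mutants against 9.75 CPM in controls, and shares 9.8% of its 50-base stretches with other genes, most with Dnmt3c.

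The Tet enzymes oxidise methylcytosine. Tet1 had 74.4, 88.3, 85.3, 84.8, 88.6 and 74.3 CPM in mutants and 76.9, 76.3, 75.7, 57.9, 71.2 and 76.4 CPM in controls. All 6 mutants exceeded the control mean of Tet1, which the low control 4 draws down, and the log2 fold change was 0.15 (SE 0.119; by edgeR, adjusted p = 0.805). Tet2 had 193, 165, 170.3, 203, 193 and 206 CPM in mutants and 144, 191, 167, 153, 185 and 184 CPM in controls, with a log2 fold change of 0.15 (SE 0.102; by edgeR, adjusted p = 0.756). Tet3 had 322, 317, 345, 334, 357 and 359 CPM in mutants and 315, 307, 293, 348, 330.3 and 334 CPM in controls, and a log2 fold change of 0.03 (SE 0.0872). The groups overlapped in each of the 3 Tet genes.

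In histone acetylation, 0 of 5 was called. Crebbp, a histone acetyltransferase whose loss of function causes Rubinstein-Taybi syndrome in humans, had 519.6, 516, 446, 452, 514 and 527 CPM in mutants and 447, 462, 469.7, 482, 515 and 542 CPM in controls. Its log2 fold change was -0.03 (SE 0.0963), with an interval from -0.23 to 0.17. Ep300, its paralog, had 189.9, 206, 181, 216, 198 and 226 CPM in mutants and 196, 197, 187, 191, 196 and 187 CPM in controls. The controls of Ep300 lay inside the range of the mutants, at a log2 fold change of 0.09 (SE 0.0908). Hdac2, a deacetylase of neurons and progenitors, had 164, 165, 181, 162, 163 and 147 CPM in mutants and 152, 175, 173, 161, 162 and 160.1 CPM in controls, and a log2 fold change of 0.04 (SE 0.0919). Hdac3, a deacetylase of co-repressor complexes, had a log2 fold change of -0.10 (SE 0.169).

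**Figure D3:**
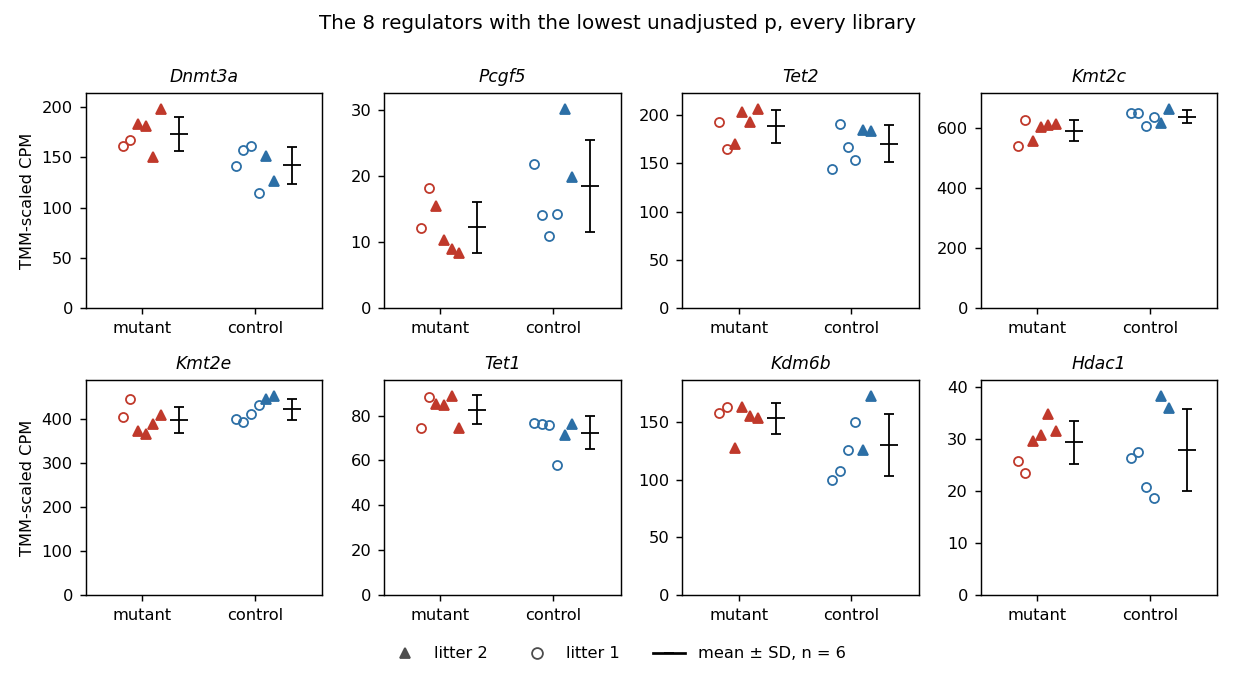
TMM-scaled CPM of the 8 regulators with the lowest unadjusted p between genotypes, for every library, mutants left of controls, with triangles for litter 2, open circles for litter 1 and bars for the mean ± SD (n = 6 each). Mutants and controls overlap in each panel, and in Hdac1 the triangles lie above the open circles in both genotypes.

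Between litters, none of the 33 was called either, against 1.31% of all genes (140 of 10678). At an unadjusted p under 0.05 edgeR found 2 of 33, Hdac1 and Kmt2d, against 15.4% of all genes. Of the 33 log2 fold changes of litter 2 over litter 1, 26 were positive and 7 negative, with a median of 0.05, beside 5242 positive and 5436 negative over all genes and 53.7% positive among the 2235 genes over 100 CPM. The cycling progenitor score, the mean log2 level of the cycling markers centred over the libraries, ran from -0.49 to 0.37 in litter 2 and from -0.37 to 0.10 in litter 1. The value of -0.49 was that of mutant 4 alone, and the other litter 2 libraries had 0.24 to 0.37, above every library of litter 1. The part of this score in the litter difference was not tested.

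Hdac1, a deacetylase that works beside Hdac2, separated the litters. In litter 2 it had 29.6, 30.8, 34.7 and 31.6 CPM in mutants and 38.2 and 35.9 CPM in controls. In litter 1 it had 25.8 and 23.4 CPM in mutants and 26.3, 27.6, 20.7 and 18.7 CPM in controls. The litters did not overlap, as in 1.66% of all tested genes, and the log2 fold change of litter 2 over litter 1 was 0.56 (SE 0.149; by edgeR, adjusted p = 0.0704). Hdac1 shares 35.5% of its 50-base stretches with other genes, most with Gm10093. Between genotypes its log2 fold change was -0.17 (SE 0.167; by edgeR, adjusted p = 0.860), and without the litter term that value was 0.03. Kmt2d averaged 301 ± 25.3 CPM in litter 2 and 249 ± 38.6 CPM in litter 1 (SD, n = 6 each), at a log2 fold change of 0.26 (SE 0.107; by edgeR, adjusted p = 0.254). Rbbp7 averaged 32.03 ± 2.92 CPM in litter 2 and 38.2 ± 3.39 CPM in litter 1, at -0.26 (SE 0.126; by edgeR, adjusted p = 0.328).

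Whether the genotype difference itself differed between the litters was tested by an interaction term. None of the 33 and 0% of all genes was called (the lowest adjusted p of the 33 was 0.529), and at an unadjusted p under 0.05 edgeR found 4 of 33, against 7.27% of all genes. Eed averaged 28.4 CPM in litter 2 mutants against 37.5 CPM in its controls, and 34.65 CPM in litter 1 mutants against 25.03 CPM in its controls. Cbx8 averaged 12.3 CPM in litter 2 mutants against 14.9 CPM in its controls, and 18.6 CPM in litter 1 mutants against 10.9 CPM in its controls. Dnmt1 averaged 139 CPM in litter 2 mutants against 159 CPM in its controls, and 153 CPM in litter 1 mutants against 119.6 CPM in its controls. Hdac3 went the other way, with 48.3 CPM in litter 2 mutants against 42.7 CPM in its controls, and 31.5 CPM in litter 1 mutants against 44.7 CPM in its controls. The interaction terms, litter 2 minus litter 1, were -0.99 for Eed (SE 0.327), -1.24 for Cbx8 (SE 0.463), -0.50 for Dnmt1 (SE 0.188) and 0.72 for Hdac3 (SE 0.273). Mutants 1 and 2 are the only litter 1 mutants and were among the 4 shallowest libraries.

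**Figure D4:**
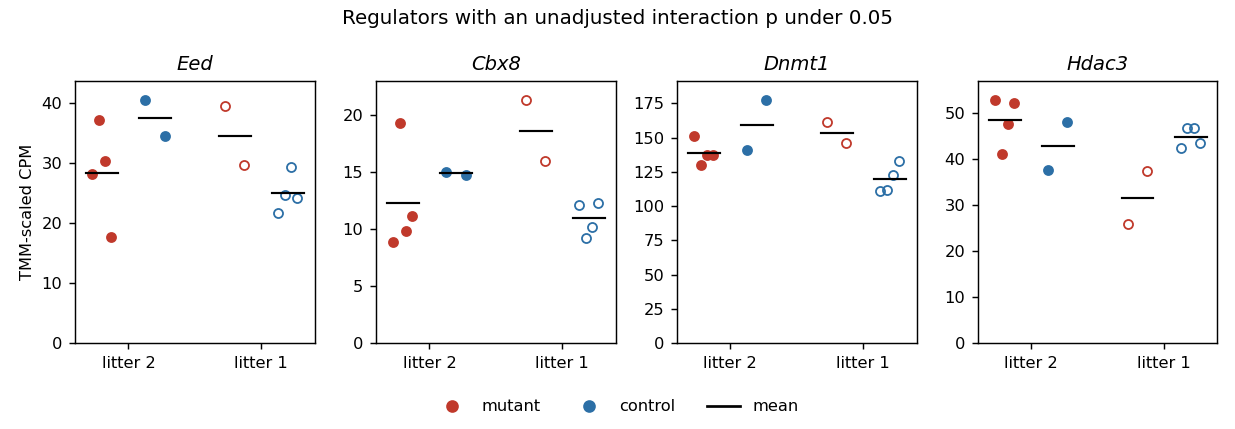
TMM-scaled CPM of Eed, Cbx8, Dnmt1 and Hdac3 by litter and genotype, mutants left of controls within a litter, filled for litter 2 and open for litter 1, with the mean as a line. The means of mutants and controls stand in opposite order in the 2 litters in each panel, and none of the 4 interaction terms passed adjustment over all genes.

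Between males and females, none of the 33 was called, and the test called 0.00937% of all genes (1 of 10678). The filter on low counts was set by genotype, with 6 libraries a group, so genes read only in the 5 males could not pass it. The count over all genes thus leaves such genes out. None of the 33 reached an unadjusted p under 0.05, whereas edgeR found 742 of 10678 genes (6.95%) at that level, and the lowest adjusted p of the 33 was 0.764, for Suz12. Rbbp7 lies on the X chromosome and had a log2 fold change of male over female of -0.15 (SE 0.145). Of the related genes on the X chromosome, Kdm6a, the H3 lysine 27 demethylase known to escape X inactivation, had -0.49 (SE 0.112, unadjusted p = 0.00034; by edgeR, adjusted p = 0.535), and Kdm5c, a lysine 4 demethylase that also escapes, had -0.25 (SE 0.123). With 5 males and 7 females, 4 of the males were controls.

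The cycling progenitor score was then added to the model. No gene was called in either direction, 0% of 10678 higher and 0% lower with the score, the scoring markers included. The score partly followed terms already in the model: litter, as given above, and sex. Males other than control 5 (0.24) had scores of -0.49 to -0.31, and females -0.19 to 0.37. Since even the scoring markers were not called, a miss here does not show that a gene is unrelated to cycling cells. Among the 33, 25 had a positive coefficient, beside 5575 of 10678 genes, and 1 had an unadjusted p under 0.05, as had 5.06% of all genes: Rnf2 at 0.78 log2 units per unit of score (SE 0.312; by edgeR, adjusted p = 0.965). Ezh2, whose transcript is known to rise in dividing cells, had 0.24 (SE 0.248). With the score in the model the log2 fold change of mutants over controls was 0.34 for Dnmt3a, -0.77 for Pcgf5 and 0.03 for Rnf2, which had -0.03 without it.

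The score of the striatum markers, added in the same way, called 0.833% of genes higher and 0.356% lower with the score, and none of the 33. Their lowest adjusted p was 0.470, for Mtf2, at 0.09 log2 units per unit of score (SE 0.0421). With this score in the model, Dnmt3a had a log2 fold change of 0.29 and Pcgf5 of -0.69 in mutants over controls.

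The wider machinery and typical targets were described from 11 related lists, chosen with earlier results of these data known, that hold 232 genes, 143 of them tested. Between genotypes 1 of the 143 was called, against 0.215% of all genes, and 14 had an unadjusted p under 0.05, against 8.78% of all genes, which is near the background. The median log2 fold change was 0.01, with 75 positive and 68 negative. Among 4 other PRC2 accessory genes tested, 0 was called and the lowest p was that of Lcor, at -0.17 (SE 0.0964). Among 25 other PRC1 genes 0 was called, with Phc3, a Polyhomeotic protein, at -0.26 (SE 0.107; by edgeR, adjusted p = 0.464) and L3mbtl2 at 0.52 (SE 0.244). Among 10 genes of the PR-DUB complex, which removes ubiquitin from histone H2A, 0 was called, with the catalytic subunit Bap1 at 0.34 (SE 0.157) and Asxl3 at -0.21 (SE 0.108). Hcfc1, its cofactor, did not pass between genotypes but was higher in litter 2, by 0.37 (SE 0.0875; by edgeR, adjusted p = 0.0420). Of 15 other trithorax and COMPASS genes 0 was called, with Wdr82 at 0.23 (SE 0.106). Of 7 further demethylases of H3 lysine 4 and lysine 27, 0 was called, and of 11 other acetyltransferases 0, with Hat1 at 0.19 (SE 0.184).

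Among 25 other histone deacetylases and partners 0 was called. At an unadjusted p under 0.05 edgeR found 5 of the 25, all lower in mutants, against 8.78% of all genes and 14 of the 143 related genes. Of the 25 log2 fold changes 16 were negative and 9 positive. Rcor3, a CoREST scaffold, had the lowest p, at -0.54 (SE 0.204; by edgeR, adjusted p = 0.394), followed by Rcor2 at -0.37 (SE 0.152). Of 16 other DNA methylation genes 0 was called. Gadd45g, linked to DNA demethylation and growth arrest, had 12.2, 20.2, 15.8, 12.8, 12.4 and 17.7 CPM in mutants and 7.52, 8.48, 7.53, 8.21, 8.68 and 10.1 CPM in controls. All mutants of Gadd45g lay above all controls, at a log2 fold change of 0.76 (SE 0.251; by edgeR, adjusted p = 0.295) that did not pass. Of the 143 related genes tested, 2 showed no overlap of mutants and controls, beside 1.26% of all tested genes, which is near the background. Trim28, which directs silencing of transposons, had 0.24 (SE 0.110).

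The gene called was the imprinted Magel2, a regulator of endosomal protein sorting expressed from the paternal allele. It had 7.60, 7.45, 8.58, 19.3, 13.7 and 14.9 CPM in mutants and 1.67, 1.41, 3.01, 1.49, 2.89 and 5.06 CPM in controls. All mutants lay above all controls, as for Gadd45g and for 1.26% of all tested genes in either direction. The log2 fold change of Magel2 was 1.85 (SE 0.371; by edgeR, adjusted p = 0.0466). Without the 2 shallowest libraries, mutants 1 and 4, no gene was called, Magel2 included. Of the other 30 imprinted genes tested none was called, and the median of the list was 0.12, with 21 positive and 10 negative. Zdbf2 had 0.39 (SE 0.178) and Peg10, a retrotransposon-derived gene, had 0.62 (SE 0.277; by edgeR, adjusted p = 0.545). Peg10 rose with the striatum score, as did the PRC1-related Scml4, and Kcnq1ot1, the antisense RNA of an imprinted cluster, fell with it (adjusted p = 0.0396, 0.000659 and 0.00566 in that order, edgeR). Neither genotype difference of Peg10 and Kcnq1ot1 passed the test.

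**Figure D5:**
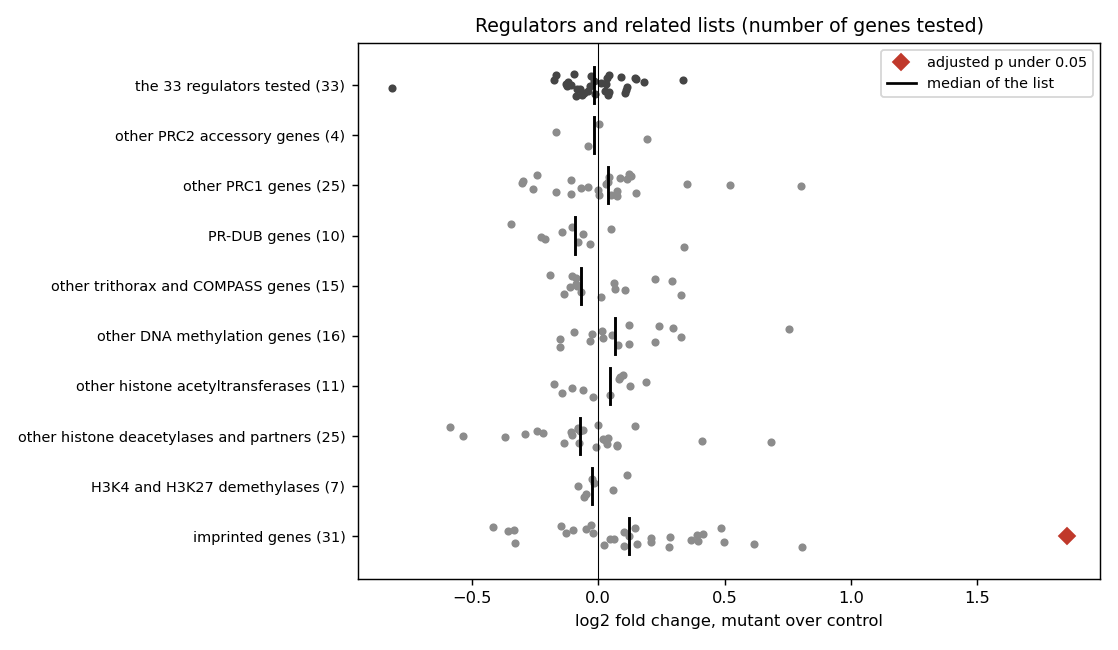
Log2 fold change of mutants over controls for the 33 regulators and for the tested genes of 9 related lists, 1 point per gene, with the median as a bar. Magel2 at 1.85 is the only point past an adjusted p under 0.05, and the list medians lie between -0.09 and 0.12.

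Genes known from other work as silenced by Polycomb or by promoter methylation had few counts. They were chosen with earlier results of these data known, and only RNA was measured. Their low counts are thus no test of repression. The 52 developmental genes known as Polycomb targets include Hox genes, Gata4, Gata6, Pax2, Pax3, Pax7 and Pax9. Pax6, a marker of dorsal progenitors given above, is not among them. Of the 52, 39 had no count in any library and the other 13 shared 108 counts, 29 of them from Tbx15. Their summed level per raw gene count averaged 5.92 ± 2.21 CPM in mutants and 4.33 ± 0.85 CPM in control libraries (n = 6 each, ± SD). The ranges overlapped, at 3.25 to 9.33 CPM in mutants and 3.13 to 5.29 CPM in controls. Of the 39, 11 are Hox genes with over 50% of their span under a same-strand gene, whose 0 is no measure of expression; of the remaining 41 genes, 28 were at 0. Of 20 germline genes that promoter methylation silences in somatic tissue, 6 had no count and the others shared 124 counts, which per raw gene count came to 6.88 ± 3.87 CPM in mutants and 5.12 ± 2.22 CPM in controls. No gene of either list passed the filter on low counts, so none was tested singly.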

How the data were processed

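RNA-seq libraries were made by ClickSeq, with random molecular tags and ribosomal RNA depleted from 600 ng of total RNA, per the labels' protocols. The submitters' processing notes name STAR 2.5.2a, HTSeq 0.6.1p1, UMI-tools 0.5.3, cutadapt 1.13, edgeR 3.20.9, bcl2fastq 2.17 and build mm10. How reads were assigned to genes is not given in the sources used here. Each file deposited by the authors holds the raw counts of 1 library per Ensembl gene. The 5 closing entries that name no gene, 20.7 to 31.6% of a file's total, were left out. Gene names and coordinates came from GENCODE M21.

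Genes passing filterByExpr (minimum count 10, genotype as group) were given TMM library sizes and a model in edgeR 4.0.16 (R 4.3.3; estimateDisp, glmQLFit with robust = TRUE, glmQLFTest) in which genotype was adjusted for litter and sex, leaving 8 residual degrees of freedom. The SE is the one the p-value implies, and intervals are 95%. Scores are mean log2(CPM + 1). DESeq2 1.42.0 and limma 3.58.1 were alternatives, and the code was tested on simulated data. Tables and plots used Python 3.11.15, pandas 2.3.3 and matplotlib 3.10.9. The labels give litter but no culture or pair numbers, and nothing says that libraries are single embryos, so p-values measure the spread between these samples. Intervals and floors of single counts (3 counts) cover counting error only, since how far molecular tags were collapsed is not known.

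The 37 genes, the related and marker lists and the named genes were chosen with earlier results of these data known. The naming rule takes any regulator called, the 8 with the lowest unadjusted p between genotypes, 12 listed genes and, of each related list, called genes and up to 4 with the lowest p; Kdm5c, Kdm6a and the flagged values were named after their values were seen. Promoter windows are those of RefSeq (GRCm38.p6), with no entry found for 6 genes. Shared 50-base stretches were counted against all annotated transcripts. One gene that the naming rule takes is not reported here.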

Additional observations from a re-analysis of the deposited data

Results flagged for a closer look

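In each genotype of 6 libraries, the highest or lowest value of a gene was compared with the gap to the next library relative to the whole range. Of 73 such groups 6 had a library that stood apart, and chance gives about 1 in 20. Cbx2 in mutant 2 was low, at 14.9 CPM, against 26.97 to 33.5 CPM in the other mutants. Kdm6b in mutant 3 was low, at 127 CPM, against 153 to 163 CPM in the other mutants. Cbx7 in mutant 6 was high, at 9.29 CPM (10 counts), against 0 to 3.04 CPM. Kmt2a in control 2 was low, at 300.3 CPM, against 359.7 to 394 CPM in the other controls, and Tet1 in control 4 was low, at 57.9 CPM, against 71.2 to 76.9 CPM. Cbx6 in control 5 stood at 1.16 CPM, which is 2 counts and, for its same-strand overlap, no measure of the gene.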

How the results depend on the processing

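Over 25 alternatives (scaling, filter, DESeq2, limma-voom, model terms, litters or females alone, depth and each library left out in turn) none of the 33 regulators was called between genotypes, and the lowest adjusted p was 0.0824, for Pcgf5 with no filter. The count over all genes moved from 23 to between 0, without the 2 shallowest libraries, and 261, with no filter; DESeq2 gave 95, and leaving out single libraries gave 6 to 55. Dnmt3a stayed between 0.21 and 0.40 and Pcgf5 between -1.10 and -0.49. Between litters it was 0 in 20 of 21 alternatives and 1 with no filter: Hdac1 at 0.57 (adjusted p = 0.0377 by edgeR). It was 0 in the 22 alternatives run for sex, the 3 for the interaction and the 15 for each score.

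Of the 33 genotype differences, none of which had passed the test, 26 changed sign in some alternative and 7 kept it in all those run (Bmi1, Dnmt3a, Dnmt3b, Ep300, Kmt2c, Pcgf5 and Tet2). The changes of sign that moved a value by at least its SE follow. Without the litter term Hdac1 had 0.026, and without litter and sex Ezh2 had 0.039, Cbx2 0.27, Dnmt1 0.11 and Hdac1 0.12. In litter 2 alone Eed had -0.28, Cbx8 -0.27, Kdm6b -0.031 and Hdac3 0.10; in litter 1 alone Ezh2 had 0.034, Pcgf3 0.090, Rnf2 0.29, Kmt2e 0.082, Dnmt1 0.46 and Crebbp 0.20. Among females Rnf2 had 0.11. Without the 2 shallowest libraries Cbx8 had -0.33, Pcgf3 0.072 and Rnf2 0.12. At equal depth Mtf2 had -0.085, Pcgf3 0.076, Dnmt1 0.18 and Tet1 -0.015. With each library left out in turn Pcgf3 ran from -0.17 to 0.039, Rnf2 from -0.14 to 0.10, Cbx2 from -0.14 to 0.19 and Dnmt1 from -0.16 to 0.23. The cause was not tested. No paired analysis was possible because the labels give no replicate numbers that groups share; litter is a term of the model. Levels per kb by gene span, chosen after seeing the data, moved by more than their spread for 33 of the 37 genes, and by longest transcript for 25. The same CPM is divided by each length, so these moves are set by the annotated lengths. Pcgf5, Cbx8, Ring1 and Dnmt3b, at low counts and with wide spread between libraries, have intervals that reach past 1.5-fold; how much each adds was not tested.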
